A study of Mus musculus with 8 samples.

Results

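The endoplasmic reticulum (ER) genes described here are 41 genes of protein folding and disposal in that compartment, chosen by name, and all 41 were found among the 49671 genes of the count table and passed the filter on low counts. By role they comprised 12 chaperones and co-chaperones, 5 protein disulfide isomerases, 9 genes of ER-associated degradation (ERAD) and 8 of the translocon and signal peptidase. A further 4 were grouped as stress sensors, with the transcription factor gene Xbp1 among them, and 3 were other ER membrane proteins. The libraries came from whole, flash-frozen liver of C57BL/6 mice (C57BL/6N in the methods of the study) after weaning, in 4 groups of 2 libraries each, which were WT males, NT-KO males, WT females and NT-KO females. NT-KO mice were homozygous for a CRISPR/Cas9 deletion across the usual start codon of Lbr, the lamin B receptor gene, from a line that goes back to 1 founder. The deletion was predicted to leave a protein without its N-terminal Tudor and RS domains but with the membrane-embedded sterol reductase domain. WT mice carried neither the deletion nor any other allele named in the labels, and the labels name no treatment. The sources used here call the 2 libraries of a group replicates without stating that they came from separate animals, so the p-values below measure the spread between these libraries.

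Secreted and membrane proteins enter the ER through the Sec61 channel, lose their signal peptide and fold with the help of chaperones that bind unfolded chains, lectins that read their sugars and isomerases that pair their cysteines. Chains that fail to fold are drawn back to the cytosol, tagged with ubiquitin and degraded by the proteasome, which is ERAD. Unfolded chains in the lumen activate 3 sensors, the kinase and nuclease IRE1 (Ern1), the membrane-bound transcription factor ATF6 (Atf6) and the kinase PERK (Eif2ak3), which raise the transcription of folding and ERAD genes and hold back translation. XBP1, whose mRNA is spliced by IRE1, is a main transcription factor of that response. Hepatocytes secrete most plasma proteins and depend on this machinery, and its mRNAs vary in liver with feeding and time of day.

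Depth was similar across the 8 libraries, with 45020377 to 64396291 counted reads, and 3 reads, taken as the floor, corresponded to 0.0441 to 0.0708 CPM (counts relative to library size, scaled by TMM). The lowest value of any ER gene was 27 reads, for Derl3 in the second male NT-KO library. Lbr itself, at chr1:181815335-181843046 on GRCm38, had 7.99 and 6.54 CPM in WT males, 12.8 and 13.6 in NT-KO males, 7.43 and 6.96 in WT females and 13.1 and 14.0 in NT-KO females, so its reads were higher in all 4 NT-KO libraries than in any WT library. These reads are summed over the whole gene and do not show the deletion. The 8 hepatocyte markers examined, Alb, Apoa1 and Ttr among them, were abundant in each library and summed to 83800 to 119755 CPM. Both ends of this range were male WT libraries, the highest sum in the first and the lowest in the second. In whole tissue, fewer cells of a type and less RNA per cell cannot be told apart.

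Per length of transcript, the ER genes spanned more than 2 orders of magnitude. In female WT liver, P4hb, the classical protein disulfide isomerase, was the most abundant at 929 ± 43.0 TPM (a level corrected for exon length, SD, n = 2). It was followed by the lectin chaperone Calr at 355 ± 1.20 TPM, the ERAD adaptor Herpud1 at 325 ± 55.4, the HSP90 homologue Hsp90b1 at 229.5 ± 42.6 and the HSP70 chaperone Hspa5 (BiP) at 215 ± 34.5. Hsp90b1 and Hspa5 differed by less than their SD. The least abundant were Derl3, a derlin, at 1.68 ± 1.03 TPM, the PERK gene Eif2ak3 at 3.33 ± 0.251 and the prolyl isomerase gene Fkbp11 at 4.95 ± 2.15. Male WT liver had a different order, with Hspa5 at 697 ± 467 TPM, between P4hb at 922 ± 166 and Calr at 461 ± 111, but with an SD that reflected unlike values in the 2 libraries.

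Promoter sequences are shown because ATF6 and XBP1 are known to act on ER genes through short promoter elements, for which these genes were searched. RefSeq promoter windows (GRCm38.p6, 250 bases before to 50 bases after each transcription start) were available for 33 of the 41 genes. The ER stress response element (ERSE, CCAAT and CCACG with any 9 bases between them, either strand) occurred in 9 of these 33 genes (27.3%) and in 37 of all 27025 genes with a window (0.137%). The ERSE-II (ATTGG and CCACG with any 1 base between them) occurred in 2 of 33 (6.06%) against 12 of all genes (0.0444%), and the XBP1 element UPRE (TGACGTGG) in 2 of 33 against 193 of all genes (0.714%). The 3 motifs can share bases, and no ER gene held more than 1 kind, so that 13 of 33 (39.4%, 95% Wilson interval 24.7% to 56.3%) held any of them, against 0.884% of all genes. The interval covers counting error only, and allowing 1 mismatch raised both shares, to 69.7% and 20.3%. Of the other ER genes described below, 89 had a window. An ERSE occurred in 1 of them (1.12%), an ERSE-II in 1 (1.12%) and a UPRE in 6 (6.74%), and 8 (8.99%) held any of the 3. The UPRE share was thus similar in the 2 sets of ER genes. The ATF4 element (AARE, TGATGNAAT) was found in 0 of 33 windows and in 1.08% of all genes. A match is a description of letters and not evidence of binding.

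The sites are given 5′ to 3′ on the strand that carries the motif as written, with 5 flanking bases on each side and the fixed motif bases in capitals.
Hspa5 ERSE, chr2:34772020-34772048: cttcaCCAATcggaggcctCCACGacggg
Creld2 ERSE, chr15:88819515-88819543: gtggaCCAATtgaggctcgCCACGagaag
Syvn1 ERSE, chr19:6046527-6046555: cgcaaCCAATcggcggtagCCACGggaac
Derl3 ERSE, chr10:75893237-75893265: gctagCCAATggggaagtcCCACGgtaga
Hsp90b1 ERSE distal, chr10:86705633-86705661: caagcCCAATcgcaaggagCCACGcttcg
Hsp90b1 ERSE proximal, chr10:86705528-86705556: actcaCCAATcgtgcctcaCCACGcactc
Dnajc3 ERSE, chr14:118937822-118937850: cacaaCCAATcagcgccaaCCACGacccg
Calr ERSE, chr8:84847070-84847098: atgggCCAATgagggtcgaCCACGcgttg
Canx ERSE, chr11:50325795-50325823: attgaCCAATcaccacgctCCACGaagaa
Pdia6 ERSE, chr12:17266486-17266514: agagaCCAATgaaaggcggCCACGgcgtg
Herpud1 ERSE-II, chr8:94386372-94386392: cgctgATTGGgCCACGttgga
Dnajb11 ERSE-II, chr16:22857847-22857867: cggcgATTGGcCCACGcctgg
Lrrc59 UPRE, chr11:94629757-94629774: gaaggTGACGTGGacacg
Txndc5 UPRE, chr13:38528040-38528057: gccgcTGACGTGGcgcta
The Hspa5 element began 65 bases before the start, that of Syvn1 44 bases and that of Calr 162 bases before it, and the ERSE-II of Dnajb11 lay just after the start, from base 7. The Hsp90b1 window held 2 ERSE copies in opposite orientation, and it is shown with that of Hspa5 to give these elements their context. Both stretches hold the 250 bases upstream of the start on the strand of the gene, with every full ERSE in capitals.
Hspa5, plus strand, chr2:34771840-34772089: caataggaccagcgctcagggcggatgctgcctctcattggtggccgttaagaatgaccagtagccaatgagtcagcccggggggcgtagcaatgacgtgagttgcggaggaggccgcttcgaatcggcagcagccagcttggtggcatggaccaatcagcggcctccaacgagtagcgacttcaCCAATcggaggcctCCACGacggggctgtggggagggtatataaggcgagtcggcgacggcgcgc
Hsp90b1, minus strand, chr10:86705445-86705694: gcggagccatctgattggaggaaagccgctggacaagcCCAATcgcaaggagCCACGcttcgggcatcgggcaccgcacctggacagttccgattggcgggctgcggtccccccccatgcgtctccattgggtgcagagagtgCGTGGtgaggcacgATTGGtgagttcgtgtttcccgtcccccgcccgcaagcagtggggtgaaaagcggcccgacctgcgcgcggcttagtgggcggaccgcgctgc

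**Figure D1:**
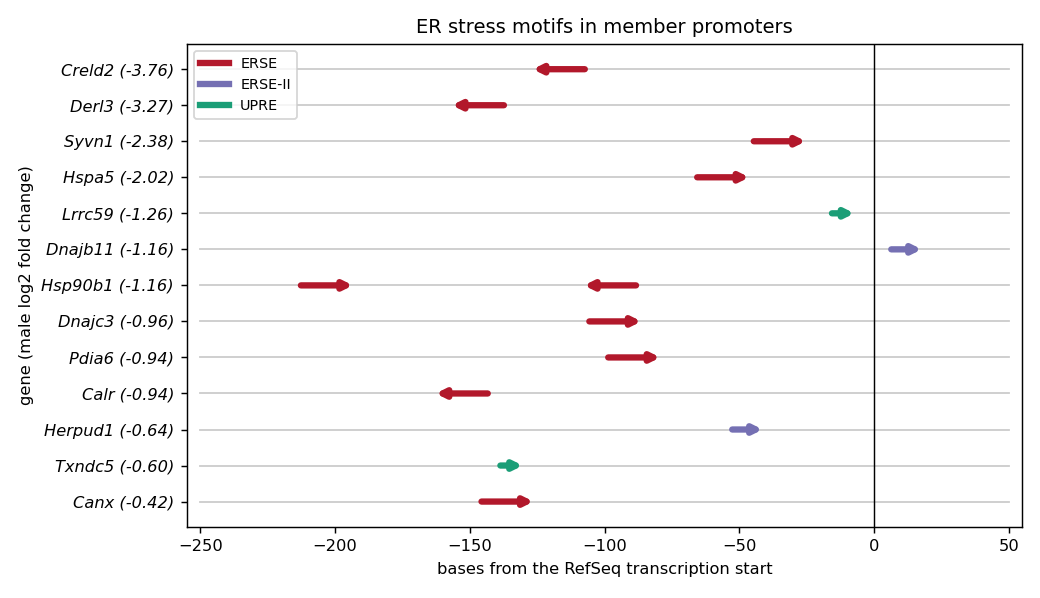
Position of each ERSE, ERSE-II and UPRE match in the promoter windows of the 13 ER genes that hold any, in bases from the RefSeq transcription start (vertical line), with arrows giving the direction in which the motif reads. Beside each gene stands its log2 fold change in male NT-KO vs WT, and 12 of the 13 genes have their matches upstream of the start.

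The comparison of NT-KO with WT males asked whether the deletion altered the ER folding genes in male liver. All 41 ER genes had lower fitted levels in NT-KO males than in WT males, with a median log2 fold change of -0.78 against 0.01 over the 13117 genes tested, 48.3% of which were lower. With scaling by library size alone 40 of the 41 were lower. The largest differences were those of Creld2, Derl3, Sdf2l1, Syvn1, Manf, Hyou1 and Hspa5, whose fitted log2 fold changes lay between -3.76 and -2.02. No ER gene passed the test, which required a change of more than 1 on the log2 scale with an FDR (Benjamini-Hochberg over all genes, edgeR quasi-likelihood test) no higher than 0.05, and 0.0152% of all genes did. At an unadjusted p under 0.05, 29 of the 41 were lower and 0 higher, against 5.5% and 6.03% of all genes, and the lowest FDR of an ER gene was 0.16. By the same thresholds edgeR's likelihood ratio test called 11 of the 41 lower (0.739% of all genes) and DESeq2 also 11 (0.808%), and the quasi-likelihood test with no filter beyond 1 count called 14 (1.04%). Both NT-KO libraries lay below both WT libraries for 34 of the 41 genes, against 19.2% of all genes.

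The second male WT library set the size of these differences. It had the highest value of the 8 libraries for 37 of the 41 ER genes, against 18.2% of all genes, and exceeded the first male WT library by more than 1.5 times for 23 of the 41 genes, against 7.91%. The first male WT library was nevertheless above all 6 libraries of the other groups for 31 of the 41 genes, against 20.9% of all genes. Without the second library, 38 of the 41 genes remained lower in NT-KO males with a median of -0.46, 15 were lower at an unadjusted p under 0.05 (3.62% of all genes) and 0 passed the FDR. Without the first library the median was -1.005, and 6 genes passed, namely Syvn1, Pdia4, Creld2, Hyou1, Sdf2l1 and Hspa5, against 0.13% of all genes. By the likelihood ratio test 4 genes were called without the second library (0.582% of all genes) and 20 without the first (1.43%). In these fits the lone male WT library was assumed to vary as the libraries of the other groups did.

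**Figure D2:**
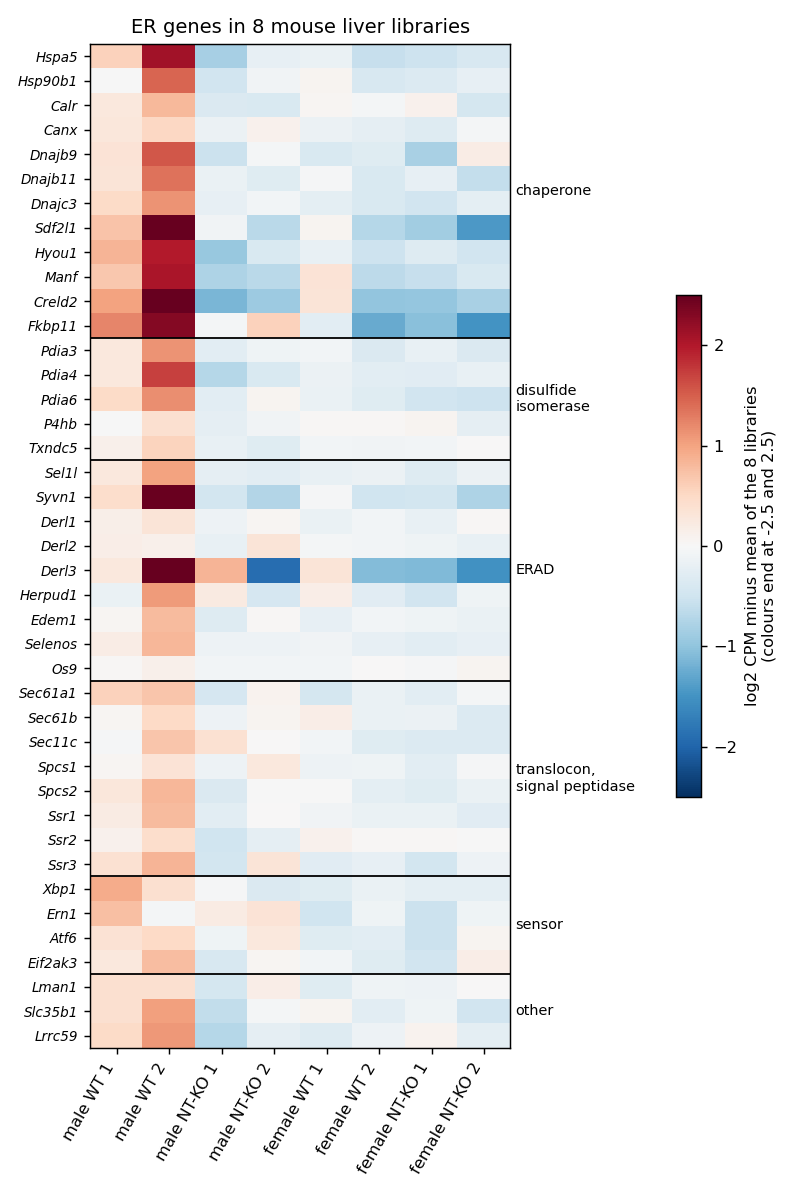
Log2 CPM of the 41 ER genes (rows, by role) in the 8 libraries (columns) as the difference from each gene's mean over the libraries, red above and blue below that mean. The second male WT library is the darkest red column, highest for 37 of 41 genes, and the first male WT library is also red for most chaperones.

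Among the chaperones, all 12 had both male NT-KO libraries below both male WT libraries (19.2% of all genes). At an unadjusted p under 0.05, 11 were lower (5.5% of all genes), and their median log2 fold change was -1.45. Hyou1, the nucleotide exchange factor that resets BiP, had 212 and 469 CPM in the male WT libraries, 61.4 and 90.1 in NT-KO males, 104 and 82.7 in WT females and 94.1 and 84.2 in NT-KO females. Both male WT libraries thus lay above the range of the other 6, 61.4 to 104 CPM, which overlapped among themselves. Its log2 fold change in males was -2.17 ± 0.37 (the value after ± is the SE for each fold change here; FDR = 0.160, edgeR), the smallest p of the 41 genes, and -1.49 ± 0.27 without the second male WT library. Creld2, an ER-resident protein with EGF-like repeats, had 65.9 and 367 CPM in WT males and 14.7 and 17.4 in NT-KO males, beside 40.5 and 16.5 in WT females and 16.8 and 18.5 in NT-KO females. Here the male WT libraries differed from each other by 5.58 times, and the lower of them still exceeded the other 6. The Creld2 fold change was -3.76 ± 0.76 on the log2 scale (FDR = 0.167, edgeR) and -2.04 ± 0.43 without the second library. Manf, a BiP-binding protein that is also secreted, had 129 and 335 CPM in WT males, 47.5 and 51.1 in NT-KO males, 103 and 51.3 in WT females and 54.4 and 62.1 in NT-KO females. Only the first female WT library came near the lower male WT value for this gene, and the log2 fold change was -2.24 ± 0.46 (FDR = 0.178, edgeR), or -1.39 ± 0.36 without the second male WT library.

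Hspa5 encodes BiP, the HSP70 of the ER lumen that binds unfolded chains and holds the stress sensors inactive, and its promoter carries the ERSE shown above. Hspa5 had 898 and 2590.4 CPM in WT males, 336 and 521 in NT-KO males, 538 and 402 in WT females and 421 and 458 in NT-KO females. The 2 male WT libraries differed by 2.89 times, whereas the other 6 lay within 336 to 538 CPM, all below the first male WT library. The male log2 fold change was -2.02 ± 0.46 (FDR = 0.210, edgeR) and -1.07 ± 0.32 without the second male WT library. Its co-chaperones showed the same order of the male groups. Dnajc3 was at 277 and 429 CPM in WT males and 173 and 189.9 in NT-KO males, Dnajb9 at 69.5 and 162 and 38.1 and 53.0, and Dnajb11 at 84.5 and 173 and 60.2 and 55.1. Their log2 fold changes were -0.96, -1.34 and -1.16, and without the second male WT library -0.61, -0.61 and -0.55. Sdf2l1, a partner of the Dnajb11 protein, had 21.4 and 107 CPM in WT males and 12.3 and 8.20 in NT-KO males, a fold change of -2.64 ± 0.67 on the log2 scale that was -1.06 ± 0.39 without the second male WT library.

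Hsp90b1 (GRP94), the HSP90 of the lumen, depended strongly on that library. It had 523 and 1445 CPM in WT males, 382 and 500.0 in NT-KO males, 555 and 400.1 in WT females and 420.0 and 459 in NT-KO females, so the first male WT library lay inside the range of the females. The log2 fold change was -1.16 ± 0.43, and -0.25 ± 0.29 without the second male WT library. The lectin chaperones that hold glycoproteins were closer together. Calr had 636 and 926 CPM in WT males and 413 and 403 in NT-KO males (-0.94 on the log2 scale), and Canx had 363 and 422 and 267 and 318 (-0.42, FDR = 0.447, edgeR), the 1 chaperone above an unadjusted p of 0.05. Fkbp11 had 26.0 and 54.9 CPM in WT males, 10.8 and 16.5 in NT-KO males, 9.27 and 4.61 in WT females and 5.37 and 3.95 in NT-KO females. This gene was therefore higher in all 4 male than in all 4 female libraries, and also lower in NT-KO males than in WT males (-1.57 ± 0.43 on the log2 scale, -0.93 ± 0.42 without the second male WT library).

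**Figure D3:**
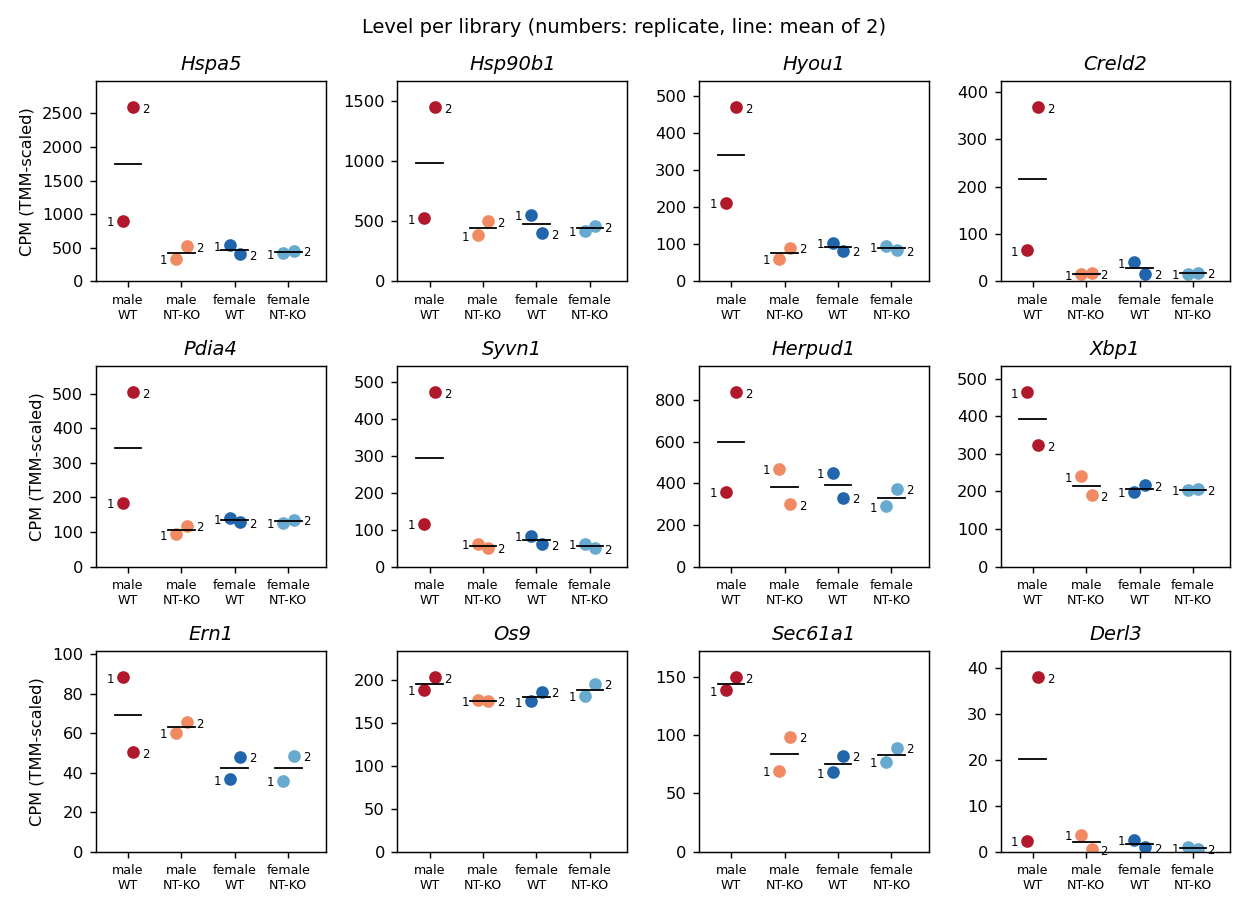
CPM (TMM-scaled, linear axes from 0) of 12 ER genes in the 8 libraries, with a point and replicate number for each library and a line at the mean of the 2 libraries of a group. For Hspa5, Hyou1, Creld2, Pdia4, Syvn1, Xbp1 and Sec61a1 both male WT points lie above the other 6, whereas for Hsp90b1, Herpud1, Os9 and Derl3 this holds for the second male WT library alone.

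Of the disulfide isomerases, which form and shuffle disulfide bonds, all 5 had both male NT-KO libraries below both male WT libraries (19.2% of all genes). At an unadjusted p under 0.05, 4 were lower (5.5% of all genes), and the median log2 fold change was -0.94. Pdia4 (ERp72) had 184 and 504 CPM in WT males, 93.7 and 118 in NT-KO males, 140.1 and 129 in WT females and 128 and 136 in NT-KO females. The first male WT library exceeded the other groups by a smaller margin than the second, and the log2 fold change of -1.70 ± 0.40 (FDR = 0.218, edgeR) became -0.80 ± 0.22 without the latter. Pdia6 (P5), an isomerase that works with BiP, had 288 and 459 CPM in WT males, 172 and 217 in NT-KO males, 184 and 168 in WT females and 148 and 145 in NT-KO females. Its male fold change was -0.94 ± 0.24 on the log2 scale (FDR = 0.243, edgeR), -0.56 ± 0.23 without the second male WT library. Pdia3 (ERp57), the isomerase that acts on glycoproteins held by Calr and Canx, had 404 and 727 CPM in WT males and 279 and 311 in NT-KO males. Its fold change of -0.94 ± 0.28 on the log2 scale (FDR = 0.287, edgeR) was -0.45 ± 0.24 without that library. The most abundant isomerase, P4hb, differed little, with 1331 and 1773 CPM in WT males and 1152 and 1258 in NT-KO males (-0.37 ± 0.21, FDR = 0.554, edgeR; -0.14 ± 0.24 without that library), and Txndc5 (ERp46) had 194 and 261 and 155 and 143 CPM (-0.60 ± 0.19, or -0.37 ± 0.21).

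The ERAD genes were less uniform, with 5 of 9 lower at an unadjusted p under 0.05 (5.5% of all genes) and a median log2 fold change of -0.64. For 6 of 9 both male NT-KO libraries lay below both male WT libraries (19.2% of all genes). Syvn1 (HRD1), the ubiquitin ligase of the retrotranslocation complex, had 116 and 473 CPM in WT males, 61.8 and 51.2 in NT-KO males, 83.8 and 60.5 in WT females and 62.2 and 49.9 in NT-KO females. The second male WT library was 4.09 times the first, which was itself above the other 6. The log2 fold change was -2.38 ± 0.56 (FDR = 0.214, edgeR) and -1.03 ± 0.26 without that library. Sel1l, the adaptor that stabilises HRD1, had 140.2 and 235 CPM in WT males against a narrow 92.5 to 105 CPM in the other 6 libraries, and its fold change was -0.93 ± 0.24 on the log2 scale (FDR = 0.242, edgeR), or -0.51 ± 0.20. Selenos (VIMP), a selenoprotein that recruits the p97 ATPase, had 60.97 and 95.3 CPM in WT males and 44.4 to 50.4 in the other 6, with a log2 fold change of -0.68 ± 0.21 (FDR = 0.293, edgeR), or -0.33 ± 0.18 without the second male WT library.

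The male groups overlapped for Herpud1, Derl3 and Derl2. Herpud1, which links ubiquitin ligase and derlins and whose promoter holds an ERSE-II, had 360.4 and 839 CPM in WT males, 469.7 and 300.2 in NT-KO males, 451 and 332 in WT females and 289.5 and 375 in NT-KO females. Its first male WT library lay below the first male NT-KO library, the log2 fold change was -0.64 ± 0.40 (FDR = 0.583, edgeR), and without the second male WT library it was 0.09 ± 0.35. Derl3, the least abundant gene, had 2.44 and 37.9 CPM in WT males and 3.68 and 0.515 in NT-KO males, so that its fitted value of -3.27 ± 1.23 on the log2 scale rested on the second male WT library and was -0.22 ± 0.98 without it. The other derlins, channel components of the complex, differed less. Derl1 had 148 and 167 CPM in WT males and 122 and 139 in NT-KO males, and Derl2 had 135 and 131 and 106 and 152 and its highest value in NT-KO males. The Derl1 log2 fold change was -0.27, or -0.18 without the second male WT library. The glycan-reading factors Edem1 and Os9 did not overlap between the male groups. Edem1 had 156 and 258 CPM in WT males and 119.6 and 154 in NT-KO males (-0.60 ± 0.25 on the log2 scale, -0.19 ± 0.23 without the second male WT library), while Os9, at 189 and 203 and 177 and 176, varied by only 1.11 times over the 6 libraries of the other groups and had a log2 fold change of -0.15 ± 0.16, or -0.10 ± 0.21.

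For the translocon and signal peptidase, 5 of 8 genes were lower at an unadjusted p under 0.05 (5.5% of all genes). Both male NT-KO libraries lay below both male WT libraries for 5 (19.2% of all genes), and the median log2 fold change was -0.64. Sec61a1, the pore subunit, had 138 and 149 CPM in WT males, 69.1 and 98.4 in NT-KO males, 68.1 and 82.2 in WT females and 76.9 and 89.0 in NT-KO females. Its male WT libraries lay close together and above the other 6, and the log2 fold change of -0.78 ± 0.21 (FDR = 0.250, edgeR) hardly moved without the second of them, at -0.72 ± 0.26. Ssr2, a subunit of the translocon-associated TRAP complex, had 81.4 and 103 CPM in WT males, 53.6 and 64.7 in NT-KO males, 81.4 and 77.5 in WT females and 76.6 and 75.4 in NT-KO females. In this gene male NT-KO was the low group and the first male WT library lay at the level of the females, with -0.64 ± 0.17 on the log2 scale between the male groups (FDR = 0.257, edgeR; -0.46 ± 0.20 without the second male WT library). Spcs2, an accessory subunit of signal peptidase, had 101 and 147 CPM in WT males and 64.4 and 82.9 in NT-KO males (-0.75 ± 0.22, FDR = 0.287, edgeR; -0.45 ± 0.23 without that library). The TRAP subunits Ssr1 and Ssr3 had log2 fold changes of -0.65 and -0.66, or -0.32 and -0.41 without it. Sec61b, the small channel subunit, Spcs1 and the catalytic subunit Sec11c overlapped between the male groups, with -0.32, -0.11 and -0.17, and without the second male WT library the values were -0.08, 0.04 and 0.24.

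Of the 4 genes grouped as sensors, Xbp1 among them, 2 were lower in NT-KO males at an unadjusted p under 0.05 (5.5% of all genes). For 3 of the 4 both male NT-KO libraries lay below both male WT libraries (19.2% of all genes), and the median log2 fold change was -0.52. Xbp1 and Ern1, unlike most ER genes, were highest in the first male WT library. Xbp1 had 464 and 323 CPM in WT males, 240.2 and 190.3 in NT-KO males, 199 and 217 in WT females and 204 and 206 in NT-KO females. Both male WT libraries lay above the other 6 with the first one higher, and the log2 fold change of -0.87 ± 0.22 (FDR = 0.237, edgeR) was -1.11 ± 0.23 without the second. Counts per gene do not separate spliced from unspliced Xbp1 mRNA. Eif2ak3 had 14.1 and 19.96 CPM in WT males and 8.91 and 12.2 in NT-KO males (-0.69 ± 0.28, FDR = 0.402, edgeR; -0.42 ± 0.32 without the second male WT library). Atf6 had 65.4 and 72.3 CPM in WT males, 47.3 and 61.01 in NT-KO males and 41.4 and 42.5 and 35.1 and 53.3 in the female groups, with a male log2 fold change of -0.35 ± 0.22 (FDR = 0.587, edgeR; -0.27 ± 0.28). Ern1 had 88.2 and 50.4 CPM in WT males and 60.2 and 65.6 in NT-KO males, which overlapped (-0.14 ± 0.28, or -0.49 ± 0.26 without the second male WT library).

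The remaining ER genes all lay lower in both male NT-KO libraries. Lrrc59, a ribosome-binding ER membrane protein with a UPRE in its promoter, had 62.4 and 95.6 CPM in WT males, 27.3 and 38.4 in NT-KO males, 35.7 and 41.01 in WT females and 47.7 and 37.7 in NT-KO females. The male NT-KO values reached from below the females into their range, and the log2 fold change was -1.26 ± 0.26 (FDR = 0.170, edgeR), or -0.93 ± 0.26 without the second male WT library. Slc35b1, the carrier that brings ATP into the ER, had 63.8 and 97.5 CPM in WT males and 31.3 and 46.4 in NT-KO males (-1.05 ± 0.27, FDR = 0.243, edgeR; -0.72 ± 0.29). Lman1 (ERGIC-53), a cargo receptor for export, had nearly equal male WT libraries of 294 and 290.1 CPM and 163 and 249 in NT-KO males (-0.51 ± 0.22, FDR = 0.437, edgeR; -0.51 ± 0.29).

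**Figure D4:**
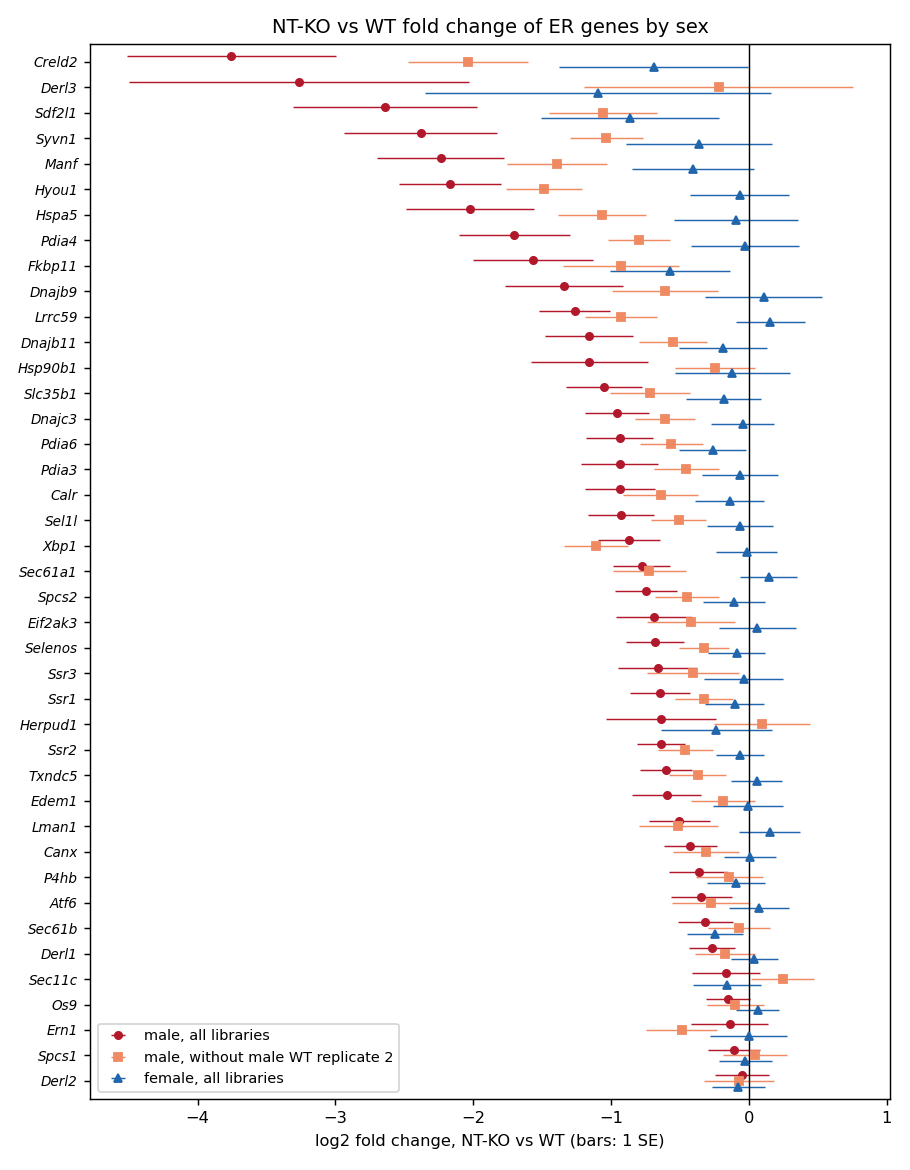
Log2 fold change of NT-KO vs WT for each of the 41 ER genes, ordered by the male value, with bars of 1 SE: males with all libraries (circles), males without the second male WT library (squares) and females (triangles). All 41 circles lie below 0, 38 squares do, and the triangles lie between -1.10 and 0.15.

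Female NT-KO and WT liver differed little in these genes. Fitted levels were lower in NT-KO females for 31 and higher for 10 of the 41 genes, and the median log2 fold change was -0.07, against 0.00 over all genes tested and 49.7% of genes lower. The values ranged from -1.10 ± 1.25 for Derl3 to 0.14 ± 0.21 for Sec61a1, 0.15 ± 0.25 for Lrrc59 and 0.15 ± 0.22 for Lman1. None passed the edgeR quasi-likelihood test (0.00762% of all genes did), 0 had an unadjusted p under 0.05 (1.55% of all genes), and the likelihood ratio test and DESeq2 called 0 as well. The smallest p was that of Sdf2l1 (FDR = 1.00, edgeR), with 13.7 and 7.99 CPM in WT females and 7.13 and 4.82 in NT-KO females, which did not overlap. Both NT-KO libraries lay below both WT libraries for 7 of the 41 genes, against 14.2% of all genes, and above them for 1, Txndc5, against 12.2%. Hspa5, at 469.8 ± 96.0 CPM in WT females and 439.8 ± 26.2 in NT-KO females (SD, n = 2), had a log2 fold change of -0.10 ± 0.45, Hyou1 one of -0.07 ± 0.36, and Xbp1 one of -0.02 ± 0.22. Without the first female WT library, 21 of the 41 genes were lower and 20 higher.

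The difference between the sexes in the effect of the deletion was tested as an interaction in the edgeR fit. The male fold change was the lower one for 40 of the 41 genes, against 48.8% of all genes, with a median difference of -0.75 on the log2 scale. None reached an FDR of 0.05, as 0.0152% of all genes did, and 14 of the 41 had an unadjusted p under 0.05, all with the lower value in males, against 3.53% of all genes. The smallest p values were those of Hyou1 (-2.10 ± 0.51, FDR = 0.573, edgeR), Lrrc59 (-1.42 ± 0.36, FDR = 0.573) and Sec61a1 (-0.92 ± 0.29, FDR = 0.593). Hspa5 differed by -1.93 ± 0.64 (FDR = 0.626, edgeR) and Xbp1 by -0.85 ± 0.31 (FDR = 0.656, edgeR). The likelihood ratio test called 1 gene, Hyou1 (0.168% of all genes were called lower), and DESeq2 called 2, Hyou1 and Lrrc59 (0.259%). With no filter beyond 1 count 10 genes were called (1.1%), and by the likelihood ratio test without the first male WT library 12 (0.787%). Without the second male WT library the median difference was -0.37, 35 of the 41 genes had the lower value in males, and 6 had an unadjusted p under 0.05 (3.02% of all genes). Scaling by library size alone moved the median of all genes to 0.10 and left 37 of the 41 genes lower in males.

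Between the WT groups, every one of the 41 genes had a higher fitted level in male than in female liver, with a median log2 fold change of 0.84 against 0.00 over all genes. This comparison and that of the male genotypes share the 2 male WT libraries. The test called 4 genes (edgeR; 2.13% of all genes were called higher). These were Fkbp11 at 2.55 ± 0.45 (FDR = 0.0208), Hyou1 at 1.86 ± 0.37 (FDR = 0.0294), Dnajc3 at 1.14 ± 0.23 (FDR = 0.0323) and Pdia6 at 1.09 ± 0.25 (FDR = 0.0411). Sec61a1 at 0.94 ± 0.21 (FDR = 0.0406) and Xbp1 at 0.92 ± 0.22 (FDR = 0.0489) passed the FDR of edgeR but not the fold threshold, so that 6 genes did so, against 3.12% of all genes. Hspa5 missed the FDR with 1.89 ± 0.46 (FDR = 0.0512, edgeR). At an unadjusted p under 0.05, 31 genes were higher in males (13.3% of all genes), and 35 had no overlap between the groups (30.6%).

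The likelihood ratio test and DESeq2 each called 14 of the 41 genes in this comparison (3.29% and 3.3% of all genes), and 15 were called with no filter beyond 1 count (2.37%). The calls depended on single libraries. With the first male WT library left out 17 genes were called (1.79% of all genes), and with the second left out 0 were, although 39 of 41 genes stayed higher in males, with a median of 0.48 and 12 genes at an unadjusted p under 0.05 (9.48%). Leaving out the first or second female WT library left 1 gene and 0, and leaving out either female NT-KO library left 1. With scaling by library size alone the median of all genes moved to -0.18, that of the 41 ER genes was 0.66, and 40 of the 41 were higher in males.

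NT-KO males and females, in contrast, had similar levels of most of these genes. The median log2 fold change of male against female NT-KO was 0.04, with 25 genes higher and 16 lower in males, and it was -0.042 with scaling by library size alone and -0.063 without the second male NT-KO library. Only Fkbp11 had an unadjusted p under 0.05, at 1.55 ± 0.44 (FDR = 0.204, edgeR), against 4.86% of all genes in the same direction. The quasi-likelihood test of edgeR called 0 (1.78% of all genes). The likelihood ratio test and DESeq2 each called Fkbp11 (1.58% and 1.54% of all genes were called higher). Both male libraries lay above both female libraries for 8 genes (16.9% of all genes), Fkbp11, Pdia6, Dnajc3 and Ern1 among them, and below for 5 (17.4%), which were Pdia4, Manf, Txndc5, Os9 and Ssr2. Hspa5 was at 429 ± 131 CPM in male and 439.8 ± 26.2 CPM in NT-KO females (SD, n = 2), and Hsp90b1 at 441 ± 83.2 and 439 ± 27.3.

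Averaged by role, the levels placed the libraries in the same way. The mean of log2 CPM over the 12 chaperones, as the difference from the mean of the 8 libraries, was 0.56 and 1.81 in WT males, -0.48 and -0.25 in NT-KO males, -0.05 and -0.54 in WT females and -0.53 and -0.53 in NT-KO females. The sensors had 0.58 and 0.41 in WT males, with the first library the higher, and between -0.45 and 0.07 in the other 6. The translocon and signal peptidase genes had 0.20 and 0.64 in WT males and between -0.24 and 0.07 elsewhere, whereas the mean over all genes tested stayed between -0.02 and 0.02 in each library. Outside male WT, the highest of the 6 libraries exceeded the lowest by more than 1.5 times for 19 of the 41 genes, against 52.9% of all genes. The smallest such ratios were 1.11 for Os9, 1.13 for Selenos and 1.14 for Sel1l, and the largest were 2.75 for Creld2, 2.85 for Sdf2l1, 4.19 for Fkbp11 and 7.16 for Derl3.

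**Figure D5:**
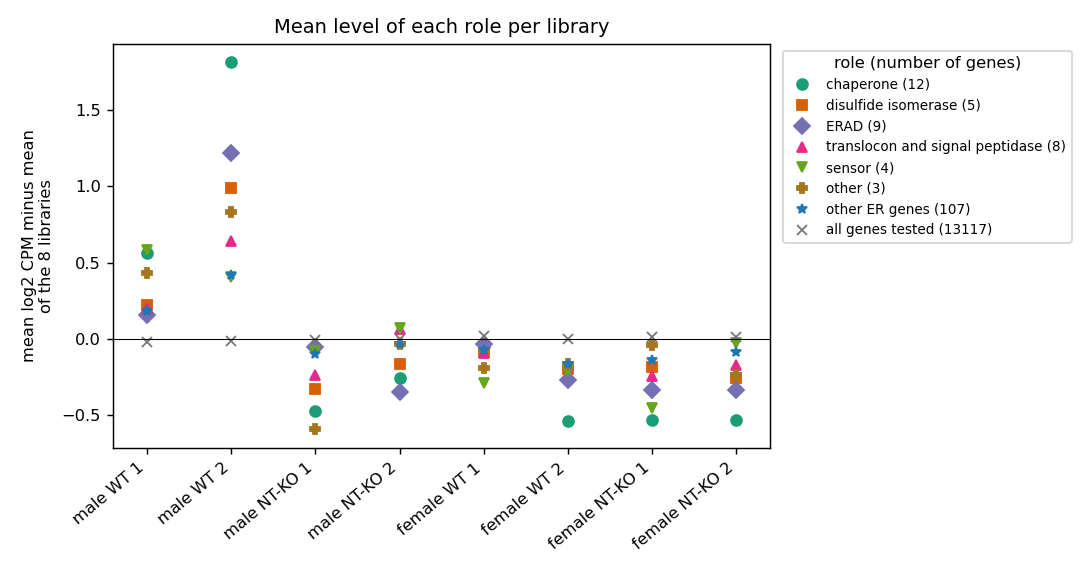
Mean log2 CPM over the genes of each role in each of the 8 libraries, as the difference from the mean of the libraries, with the 107 other ER genes and all 13117 genes tested for comparison. Chaperones range from 1.81 in the second male WT library to -0.54, and all genes tested stay near 0.

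Genes grouped by their promoter motif are given as a description. In males the 9 genes with an ERSE had log2 fold changes from -3.76 (Creld2) to -0.42 (Canx) with a median of -1.16. Of them 8 had an unadjusted p under 0.05, at which 5.5% of all genes were lower. The 20 genes whose window held none of the ERSE, ERSE-II and UPRE had a median of -0.69 and a range of -2.64 (Sdf2l1) to -0.05 (Derl2), with 14 at an unadjusted p under 0.05. Without the second male WT library the medians were -0.61 and -0.43. In females they were -0.14 and -0.07. Genes among the largest male differences, such as Sdf2l1 and Pdia4, thus held no exact match in the window searched, and Canx, with an ERSE, was among the smaller ones.

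The wider ER pathway was followed in 107 further genes, from a list that excluded the 41. In males 87 were lower and 20 higher in NT-KO, with a median log2 fold change of -0.31, and 48.3% of all genes were lower. At an unadjusted p under 0.05, 44 were lower and 2 higher, against 5.5% and 6.03% of all genes. The edgeR quasi-likelihood test called 0. The likelihood ratio test called 6 lower and 1 higher (0.739% and 0.823% of all genes). DESeq2 called 7 lower and 1 higher (0.808% and 0.854%). Without the second male WT library, 83 of the 106 that passed the filter were lower, 18 and 1 lower and higher at an unadjusted p under 0.05, with a median of -0.21. In females 0 were lower and 1 higher at an unadjusted p under 0.05, with a median of 0.01 and 0 called by edgeR or DESeq2. Redox enzymes that supply the isomerases with oxidising power included Ero1b at -1.22 ± 0.26 and Ero1a at -0.61 ± 0.18 in males, and 7 of the 13 redox genes had an unadjusted p under 0.05. Uggt1, the glycoprotein folding sensor, was at -0.81 ± 0.16, and the HSP70-like Hspa13 at -1.33 ± 0.37. Of 22 translocation and glycosylation genes 12 were lower at an unadjusted p under 0.05, among them Srprb, of the signal recognition particle receptor, at -1.24 ± 0.25 (-0.80 without the second male WT library), Serp1 at -0.86 ± 0.23 and the oligosaccharyltransferase Stt3a at -0.61 ± 0.23, but not Sec63 at -0.19 ± 0.17 or Ssr4 at -0.20 ± 0.20 (-0.05 and 0.07 without that library).

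Of 15 export and retrieval genes 10 were lower at an unadjusted p under 0.05, against 5.5% of all genes. Among them were the COPII coat genes Sec23b at -1.23 ± 0.27 and Sec24d at -1.14 ± 0.28. The KDEL receptor Kdelr2 was at -0.65 ± 0.22 (-0.38 without the second male WT library). The 20 further ERAD genes had 7, with Edem3 at -0.85 ± 0.23 and the p97 ATPase gene Vcp at -0.19 ± 0.21 (-0.11 without it). The 20 further chaperone and lectin genes had 5, and the thioredoxin-like Tmx4, counted as redox, was at -0.76 ± 0.29. The 17 stress signalling genes had 3. Those of the PERK branch stood at 0.09 ± 0.21 for the transcription factor Atf4, -1.04 ± 0.47 for Ddit3 (CHOP), 0.48 ± 0.65 for Trib3 and 0.16 ± 0.29 for the phosphatase subunit Ppp1r15a, none with an unadjusted p under 0.05 (edgeR), and in the same order at 0.27, 0.09, 0.90 and -0.15 without the second male WT library. The protease Mbtps1, which cleaves ATF6, was at 0.08 ± 0.16 (-0.03 without the second male WT library) and the hepatocyte factor Creb3l3 at -0.16 ± 0.17. In the WT comparison of the sexes 9 of the 107 were called higher in males, against 2.13% of all genes, which were Uggt1, Edem3, Tmx4, Serp1, Sec23b, Sec24d, Ero1b, Srprb and Hspa13, with log2 fold changes from 1.04 to 1.58. With single libraries left out 0 to 14 were called, 14 without the first and 1 without the second male WT library, 0 without either female WT library and 3 without either female NT-KO library. By the likelihood ratio test too, more were called without the first male WT library than without the second.

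Other gene lists moved with the second male WT library or with male WT. The 18 cytosolic heat shock genes had means of 0.42 and 0.98 in WT males and between -0.41 and -0.11 in the other 6 libraries, on the same log2 scale as the role means. The 4 clock genes that peak opposite to the clock output genes had 0.84 and 0.98 in WT males and between -0.79 and 0.10 elsewhere, and the 9 clock output genes -0.55 and -0.20 in WT males and between -0.04 and 0.34 elsewhere. The 5 erythroid markers summed to 947 and 445 CPM in WT males, 372 and 370.2 in NT-KO males and 170.4 to 320.3 in females. The 12 B lymphocyte and plasma cell markers, of cells rich in ER, summed to 49.8 and 68.2 CPM in WT males, 112 and 121 in NT-KO males, 117 and 125 in WT females and 77.0 and 80.2 in NT-KO females. Of these 12 markers 8 lay higher in both male NT-KO libraries than in both male WT libraries, against 19.6% of all genes tested. At an unadjusted p under 0.05 (edgeR), 3 of the 8 tested were higher, against 6.03% of all genes tested. Reads were few for some, such as Pou2af1, with 9 and 3 in WT males and 14 and 10 in NT-KO males. The immunoglobulin light chain gene Igkc had 3.18 and 7.46 CPM in WT males and 32.0 and 17.6 in NT-KO males, the joining chain gene Jchain 0.582 and 1.79 against 5.78 and 6.27, and the heavy chain gene Ighm 4.92 and 2.62 against 7.30 and 48.1. Cd74, the most abundant of the 12, overlapped between the male groups, with 38.87 and 54.49 against 62.9 and 45.5 CPM. The 5 T lymphocyte markers, none abundant enough to be tested, summed to 0.706 and 0.897 CPM in WT males, 1.28 and 1.26 in NT-KO males and 2.27 to 4.28 in females, so both male WT libraries lay below the other 6. The 4 neutrophil markers summed to 1.78 and 7.03 CPM in WT males and to 1.16 to 4.88 elsewhere. The part of these genes and cells in the differences of the ER genes was not tested.

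The summed Kupffer, endothelial, stellate and cholangiocyte markers overlapped between WT and NT-KO males. Kupffer and endothelial sums were lower in all male than in all female libraries. The 6 Kupffer cell markers summed to 124 and 199 CPM in WT males, 222 and 165 in NT-KO males and 235 to 279 in females. The 5 endothelial markers summed to 135 and 93.8 CPM in WT males, 143 and 129 in NT-KO males and 147 to 166 in females. The part of these cells in the ER gene differences between the sexes was not tested. Over the 8 libraries the 5 stellate cell markers summed to 197 to 292 CPM and the 4 cholangiocyte markers to 4.09 to 7.28. The lowest endothelial, stellate and hepatocyte sums were those of the second male WT library. The part of this in the ER gene differences was not tested. Of the 10 pancreatic acinar markers, 8 were at or under 3 reads in every library and 5 of them at 0, including the carboxypeptidase gene Cpb1 and the lipase gene Pnlip. Cela2a had 12 to 35 reads. Cela1 was clearly present, at 38.6 and 28.0 CPM in WT males, 34.3 and 37.2 in NT-KO males and 13.7 to 20.9 in females. The libraries were counted without a stated use of strand, and exons of other genes overlap 16.3% of the exon bases of Spcs1, 15.7% of Hsp90b1, 12.8% of Ssr2, 11.9% of Txndc5 and at most 9.25% of any other ER gene, so reads there cannot be assigned to 1 gene with certainty.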

How the data were processed

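Total RNA from mouse liver was extracted with Trizol, made into libraries with an Illumina TruSeq RNA kit and sequenced, per the labels. The authors trimmed reads with cutadapt, aligned them to GRCm38 with STAR 2.6.1a and assigned them to Ensembl genes with featureCounts. They deposited whole-number counts per gene for 8 libraries, with no normalization or filter. The settings for strand and for reads with several positions were not given in the sources used here.

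Genes that reached 1 CPM in 2 or more of the libraries entered the fit, without those encoding rRNA, miRNA or mitochondrial transcripts, which left 13117 of 49671 genes. Names, positions and exon lengths came from the GENCODE annotation of GRCm38, which 49412 gene IDs matched. Library sizes (45020377 to 64396291 reads, at which 3 reads were 0.0441 to 0.0708 CPM) were scaled by TMM, with factors of 0.926 to 1.06. The quasi-likelihood model of edgeR 4.0.16 (R 4.3.3) had 1 coefficient per group and used the 8 libraries together, and its p-values were adjusted over all genes by Benjamini-Hochberg. A gene was called at an FDR no higher than 0.05 with a change of more than 1 on the log2 scale, and in the interaction of sex and genotype at that FDR alone. The SE is the size of the log2 fold change divided by the square root of F. Alternatives comprised DESeq2 1.42.0, the likelihood ratio test of edgeR, RLE factors, library size only, 3 other filters, robust dispersion, a replicate block, the 4 libraries compared alone, and each library left out. Chosen after seeing the data were the likelihood ratio test without either male WT library and a crossed replicate block. On simulated counts for male NT-KO vs WT (13117 genes), the quasi-likelihood test recovered 46% of 100 genes changed by 1 on the log2 scale and 100% of 100 changed by 2. Every simulated gene had the same spread between replicates (a biological coefficient of variation of 0.217). Several ER genes, such as Creld2 and Hspa5, varied more between the male WT libraries, so these shares do not describe them.

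The 41 genes, the 109 other ER genes (107 tested) and the lists of cell markers, heat shock and clock genes were chosen with earlier results of these data known. Genes were named by rule: all 41, Lbr, other ER genes that were called or fixed by role, and full statistics for the 3 smallest p-values per role in the male comparison and for Hspa5, Xbp1 and Herpud1. Promoter windows came from RefSeq on GRCm38.p6, matched by symbol.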

Additional observations from a re-analysis of the deposited data

How the results depend on the processing

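The direction of the median ER gene held under each alternative for NT-KO vs WT in males and in females, for the difference between the sexes and for male vs female WT. For male vs female NT-KO it turned from 0.04 to -0.042 with library size only, and leaving out a library gave -0.063 to 0.18. The number of ER genes called changed more. In NT-KO vs WT males it was 0 in the edgeR quasi-likelihood test, 11 in the likelihood ratio test, 11 in DESeq2 and 14 with no filter beyond 1 count, and leaving out each library gave 0 to 6. With the likelihood ratio test it was 20 without the first male WT library and 4 without the second. For the other ER genes the counts with all libraries were 0, 7, 8 and 9 in the same order. In the last 3 of these fits, 0.739%, 0.808% and 1.04% of all genes were called lower and 0.823%, 0.854% and 1.21% higher. By the likelihood ratio test more other ER genes were called without the first male WT library than without the second. In females 1 ER gene was called with no filter beyond 1 count, where 0.168% of all genes were called lower and 0.41% higher. For the difference between the sexes 1 ER gene was called by the likelihood ratio test, 2 by DESeq2, 10 with no filter beyond 1 count and 12 by the likelihood ratio test without the first male WT library, and for the other ER genes DESeq2, no filter and that last setting gave 1, 11 and 3. The median difference, -0.75, lay between -0.99 and -0.37 with a library left out, and the likelihood ratio test without the second male WT library gave -0.37. In male vs female WT the 4 calls became 14 with the likelihood ratio test, 14 with DESeq2, 15 with no filter beyond 1 count, 7 with filterByExpr, 1 with the 4 libraries compared alone and 0 to 17 with a library left out, and 20 by the likelihood ratio test without the first male WT library. Of all genes, 3.29% were called higher there by the likelihood ratio test, 3.3% by DESeq2 and 2.37% with no filter beyond 1 count. The counts for the remaining settings, and those of the other ER genes in this comparison, stand here without such a share. Alone they do not show whether the ER genes changed more than all genes did. The median of the ER genes in male vs female WT, 0.84, lay between 0.48 and 1.00, with 0.48 also by the likelihood ratio test without the second male WT library. The 9 other ER genes called became 0 to 14 with a library left out, and 22 and 4 by the likelihood ratio test without the first and without the second male WT library. For male vs female NT-KO 1 ER gene was called by the likelihood ratio test, where 1.55% of all genes were called lower and 1.58% higher. DESeq2 also called 1 (1.52% and 1.54%). With no filter beyond 1 count 2 ER genes and 1 other ER gene were called (1.44% and 1.34%). The share of promoters with a motif was 69.7% with 1 mismatch allowed. Which cause lies behind these changes was not tested, beyond the fewer libraries or other genes that a setting itself brings.

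Same-numbered libraries did not deviate together (correlations over genes of -0.18 to 0.21), so the replicate numbers were not taken to pair them. With a replicate block the ER genes called were 0 in NT-KO vs WT males, 0 in females, 0 for the difference between the sexes, 4 in male vs female WT and 0 in male vs female NT-KO, the same numbers as without it. With the male WT numbers crossed, the block gave 8 calls in male vs female WT. A library left out leaves its group with 1, which was then assumed to vary like the other groups. At 2 libraries per group and these depths, a log2 difference of 1 in a gene was recovered in 46% of simulated cases.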
